A study of Mus musculus with 6 samples.

Results

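Polycomb proteins keep genes silent through 2 marks on histones, and 9 of the genes that write, place or remove these marks were followed here in mouse pancreatic islets, which hold the endocrine cells of the pancreas. The genes were taken by name from a table of read counts for 53670 genes: Ezh1, Ezh2, Eed and Suz12 of Polycomb repressive complex 2 (PRC2), its partner Jarid2, the demethylase gene Kdm6b, and Rnf2, Ring1 and Bmi1 of Polycomb repressive complex 1 (PRC1). All 9 were found and all 9 passed the filter on low counts. The islets came from mice 6 weeks old, 3 libraries from Paupar +/+ animals (wild type, WT) and 3 from Paupar -/- animals (knockout, KO), Paupar being a long noncoding RNA gene beside Pax6. How the knockout allele was made, and whether a library is 1 animal or a pool, is not given in the sources used here, so p-values reflect the spread between these libraries alone, and that spread may be technical.

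PRC2 places methyl groups on lysine 27 of histone H3, with EZH1 or EZH2 as its catalytic subunit and EED and SUZ12 needed for its activity. PRC1 binds such chromatin and attaches ubiquitin to histone H2A through RING1 or RNF2 (also called RING1B), with BMI1 as 1 of several alternative partners. KDM6B (also called JMJD3) and its X-linked relative KDM6A remove methyl groups from the same lysine. In the pancreas Polycomb is best known for holding the cell cycle inhibitor locus Cdkn2a silent in young, dividing beta cells, and EZH2 is known to be abundant in dividing cells while EZH1 persists in resting ones.

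The libraries held 25733194 to 27285009 gene counts. The insulin, glucagon and other marker genes of the islet were high in every library, with 8 beta cell genes at 21.4 to 27.5% of all counts. The Paupar transcript itself was counted 177, 252 and 111 times in WT, against 4, 0 and 4 times in KO. Reads of Xist, which marks the inactive X chromosome, numbered 0 to 6 in WT and in KO replicate 1 but 1120 and 862 in the other KO libraries, so the KO group was mixed for sex-linked transcripts. This touches X- and Y-linked relatives of the 9 genes, given below.

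EZH1 and EZH2 catalyse the same reaction, and the promoters of their genes are shown here side by side. RefSeq promoter windows (GRCm38.p6, 250 bases before to 50 after the start) were held for 8 of the 9 genes, all but Kdm6b. Each line reads 5′ to 3′ on the gene's own minus strand, and capitals mark matches on either strand to CCAAT boxes (spelled CCAAT) and to E2F-type motifs, searched as TTTCGCG, with the variant TTTGGCG, and with the further variant GGCGGGA.
Ezh2, chr6:47594981-47595280: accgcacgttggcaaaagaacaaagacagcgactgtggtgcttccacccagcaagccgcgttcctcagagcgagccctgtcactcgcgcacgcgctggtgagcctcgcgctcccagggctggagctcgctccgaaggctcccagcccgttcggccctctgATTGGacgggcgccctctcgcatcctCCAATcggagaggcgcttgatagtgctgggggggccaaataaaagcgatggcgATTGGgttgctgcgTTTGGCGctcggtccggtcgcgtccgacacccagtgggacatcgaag
Ezh1, chr11:101226414-101226713: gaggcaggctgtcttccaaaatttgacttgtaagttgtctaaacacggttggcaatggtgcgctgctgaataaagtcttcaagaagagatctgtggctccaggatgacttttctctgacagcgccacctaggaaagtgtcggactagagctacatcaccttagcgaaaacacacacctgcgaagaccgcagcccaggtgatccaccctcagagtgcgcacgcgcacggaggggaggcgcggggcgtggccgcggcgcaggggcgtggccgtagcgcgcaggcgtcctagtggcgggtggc
The Ezh2 window held 3 CCAAT boxes and 1 E2F-type motif, which did not overlap. In the Ezh1 window none of these strings occurred. Over 32851 RefSeq promoter windows of this length, 13.2% held an E2F-type motif and 37.4% a CCAAT box. Both windows were rich in CpG dinucleotides, with 31 in Ezh2 and 23 in Ezh1 against a median of 7. A match describes letters only, and its absence says nothing about a factor. Any link between the matches and the levels of Ezh1 and Ezh2 was not tested.

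Kdm6b, the eraser, was the 1 gene of the 9 that edgeR called lower in KO islets. Kdm6b lies on chromosome 11 from 69212010 to 69227177 in mm9. Its level in WT replicates 1 to 3 was 45.3, 47.4 and 48.7 CPM (counts scaled by library size with TMM factors), and in KO replicates 1 to 3 it was 27.6, 26.6 and 29.0. All KO libraries were below all WT libraries, and within each group the values lay close together. The means were 47.1 ± 1.75 CPM in WT and 27.7 ± 1.18 in KO (SD, n = 3), so KO kept 58.8% of the WT level. The log2 fold change of KO over WT was -0.77 (SE 0.07, edgeR adjusted p = 0.0446). Adjusted p below 0.05 was the rule for a call, and 0.17% of the 15915 genes tested were called lower. By p-value Kdm6b ranked 3 among them, and 542 genes had a more negative fold change. In bulk islets, fewer cells of a type and less RNA per cell cannot be told apart.

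**Figure D1:**
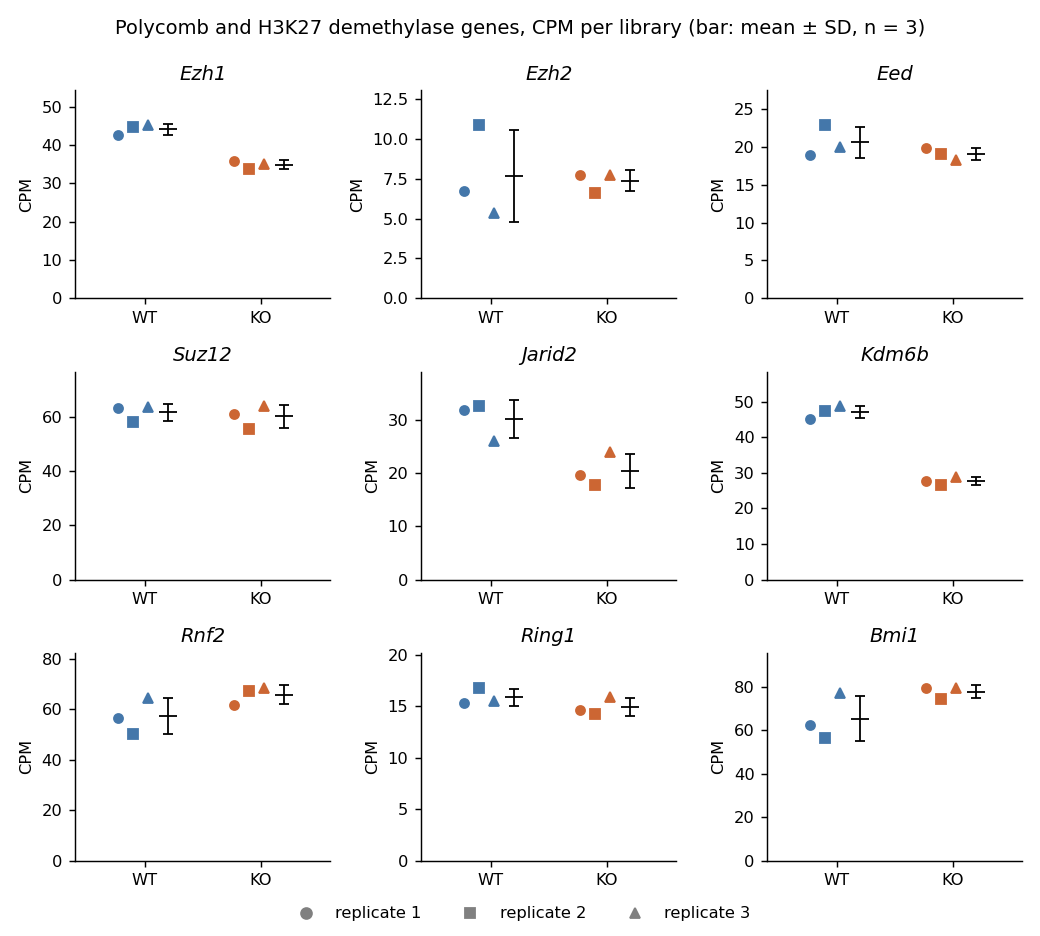
CPM of each of the 9 genes (vertical axes, from 0) in the 3 WT and 3 KO libraries, with symbols for the replicate number and bars for mean ± SD. For Kdm6b, Ezh1 and Jarid2 all KO points lie under all WT points, and the other 6 genes overlap between groups.

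The size of the Kdm6b difference was steadier than its call. Over 16 alternative settings the log2 fold change ran from -0.80 to -0.57, always below 0, and 5 of the 16 kept the call. DESeq2 gave an adjusted p of 1.85e-12 and limma-voom 0.0558. Leaving out WT replicate 1, 2 or 3 gave an adjusted p of 0.239, 0.144 or 0.0401, and leaving out KO replicate 1, 2 or 3 gave 0.0972, 0.263 or 0.151. KO replicate 1 alone, the KO library without Xist, stood at -0.77 against WT (SE 0.11, adjusted p = 0.566). With 1 library in that arm, the SE and p rest on the spread among the WT libraries and assume that the lone library varies like them. Kdm6b has long and GC-rich exons (6954 bp, longer than 85.3% of tested genes with annotation, and 59.0% GC, above 93.7% of them). With offsets for exonic length and GC content the difference was -0.57 (SE 0.07, adjusted p = 0.0893).

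**Figure D2:**
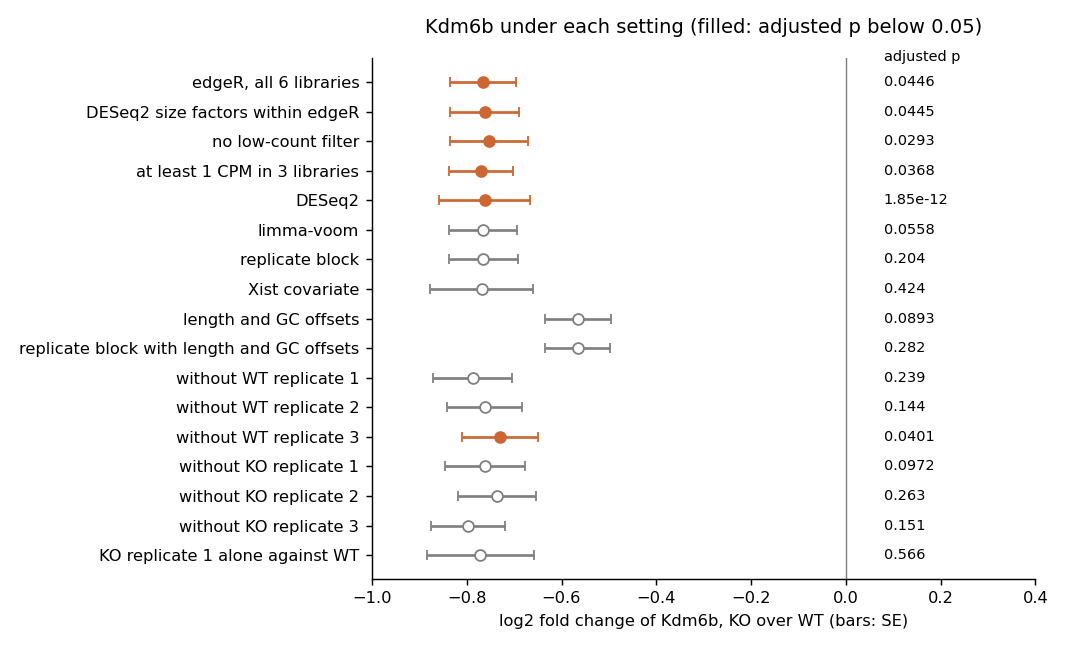
Log2 fold change of Kdm6b, KO over WT (horizontal axis, bars SE), under the main setting and 16 alternatives, with the adjusted p of each at the right and filled points where it is below 0.05. The points stay between -0.80 and -0.57 while only some settings pass.

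Kdm6a, the X-linked relative, and Uty, its Y-linked homolog with little demethylase activity, followed the sex-linked genes. Kdm6a measured 45.2, 45.2 and 45.4 CPM in WT, at 40.2 in KO replicate 1 and at 74.5 and 74.7 in KO replicates 2 and 3 (log2 fold change 0.48, SE 0.22, adjusted p = 0.349). Uty was at 41.5, 35.0 and 40.4 CPM in WT, 48.1 in KO replicate 1 and 0.115 and 0.0377 in the other two (-1.28, SE 1.52, adjusted p = 0.719). Reads of these homologs may be split between them. Without KO replicate 1 the fold change of Uty was -8.92 (adjusted p = 0.000524), a contrast in which genotype and sex-linked transcripts cannot be told apart. Per kilobase of exon, Kdm6a and Uty together gave 10.9, 10.1 and 10.8 CPM in WT and 11.2, 9.15 and 9.16 in KO. Kdm6b made up 37.3, 40.3 and 39.3% of the 3 KDM6 genes per kilobase in WT and 26.2, 29.5 and 31.3% in KO, with no overlap. These shares depend on the exon lengths annotated for the genes.

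**Figure D3:**
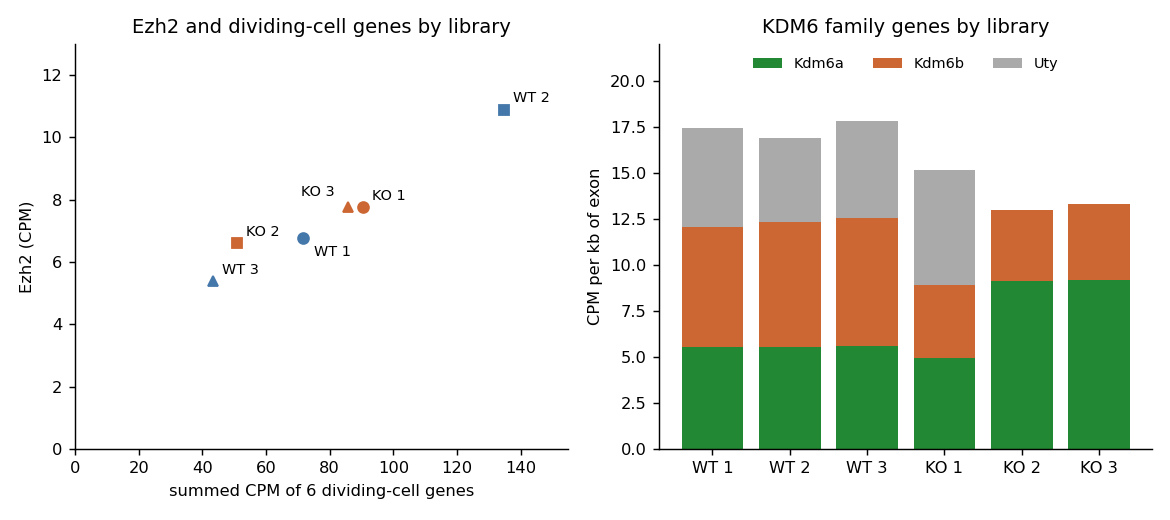
Left, Ezh2 in CPM against the summed CPM of 6 dividing-cell genes in each library (WT blue, KO orange). Right, CPM per kilobase of exon of Kdm6a, Kdm6b and Uty stacked for each library. Ezh2 is highest in WT replicate 2, where the dividing-cell genes are also highest, and the Kdm6b segment is shorter in all KO libraries than in any WT library.

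Among the writers, Ezh1 and Jarid2 were lower in every KO library but did not pass the test. Ezh1 (chromosome 11, 101052429 to 101087777 in mm9) had 42.6, 44.7 and 45.3 CPM in WT and 36.0, 33.7 and 35.1 in KO. Its log2 fold change was -0.34 (SE 0.07, adjusted p = 0.111). Jarid2 (chromosome 13, 44824843 to 45017012 in mm9), whose product helps bring PRC2 to its sites, had 31.9, 32.6 and 26.1 CPM in WT and 19.6, 17.8 and 24.0 in KO. The KO libraries stood below the WT libraries, with the closest pair at WT replicate 3 and KO replicate 3. The fold change was -0.56 (SE 0.14, adjusted p = 0.160). DESeq2 called both, Ezh1 with an adjusted p of 0.00708 and Jarid2 with 0.019, and it called 4.1% of the 10659 genes to which it gave an adjusted p lower in KO and 1.96% higher. Both are long genes too, with 7440 and 9715 bp of exon, and with the length and GC offsets they stood at -0.25 and -0.42.

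Ezh2 did not differ between genotypes beyond its spread, which was the widest of the 9 genes in WT (SD 37.4% of the mean). Its level (chromosome 6, 47480273 to 47545340 in mm9) was 6.77, 10.9 and 5.37 CPM in WT and 7.77, 6.61 and 7.77 in KO (-0.06, SE 0.26, adjusted p = 0.937). WT replicate 2 stood above all other libraries and WT replicate 3 below all of them. The fold change had no steady sign. Leaving out WT replicate 2 turned it to 0.28 (adjusted p = 0.561). It stood at 0.02 when KO replicate 2 was dropped or KO replicate 1 alone was set against WT, and just above 0 in limma-voom (0.003113), with the replicate number as a block (5.905e-05) and with the Xist covariate (0.00158). The other 10 of the 16 alternatives were below 0, down to -0.25 without WT replicate 3 (adjusted p = 0.560). Genes of dividing cells moved along: 6 of them summed to 71.6, 134.7 and 43.3 CPM in WT and 90.3, 50.9 and 85.7 in KO, with the highest and lowest values in those same libraries. Among them the proliferation marker Mki67 ran from 10.2 to 49.2 CPM and the topoisomerase gene Top2a from 17.4 to 51.6.

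The remaining PRC2 core genes overlapped between the groups. Eed, whose product reads the trimethyl mark (chromosome 7, 97103166 to 97129493 in mm9), had 18.9, 22.9 and 20.0 CPM in WT and 19.9, 19.0 and 18.3 in KO (-0.11, SE 0.10, adjusted p = 0.621). Suz12, which encodes the subunit that holds the complex together (chromosome 11, 79806608 to 79847625 in mm9), had 63.4, 58.1 and 63.9 CPM in WT and 61.2, 55.8 and 64.0 in KO (-0.03, SE 0.08, adjusted p = 0.863).

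None of the PRC1 core genes passed the test. Rnf2, the main ubiquitin ligase gene of the complex (chromosome 1, 153316536 to 153347953 in mm9), had 56.7, 50.3 and 64.6 CPM in WT and 61.5, 67.1 and 68.5 in KO (0.20, SE 0.10, adjusted p = 0.394). Bmi1 (chromosome 2, 18598645 to 18608256 in mm9) had 62.4, 56.7 and 77.0 CPM in WT and 79.3, 74.3 and 79.7 in KO (0.25, SE 0.12, adjusted p = 0.346). For both genes WT replicate 3 lay within the KO range, and without it the fold changes were 0.31 and 0.40 (adjusted p = 0.151 and 0.0971). Without WT replicate 2, the lowest library for both, they were 0.11 and 0.16 (adjusted p = 0.656 and 0.599), and with the length and GC offsets 0.07 and 0.18. Ring1, the paralog of Rnf2 (chromosome 17, 34157737 to 34161625 in mm9), had 15.3, 16.8 and 15.5 CPM in WT and 14.7, 14.2 and 15.9 in KO (-0.09, SE 0.09, adjusted p = 0.680).

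**Figure D4:**
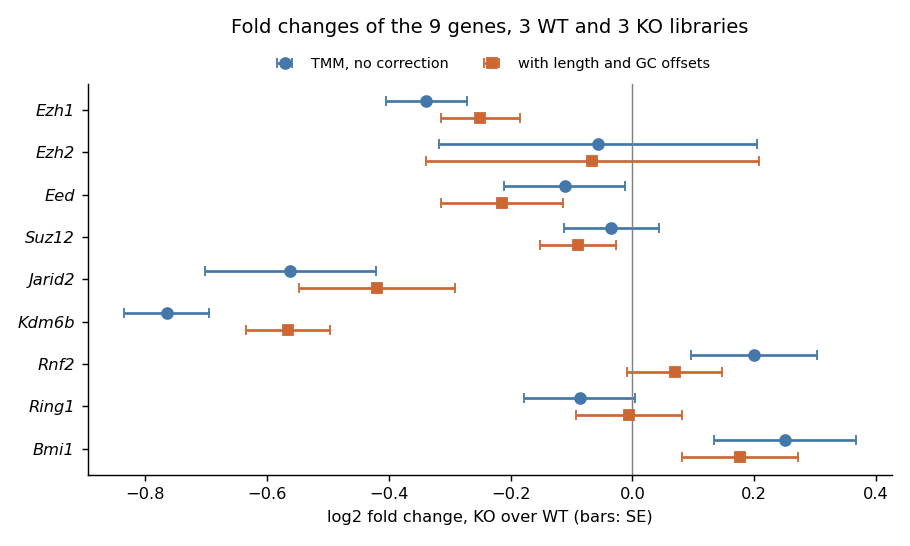
Log2 fold change of KO over WT (horizontal axis, bars SE) for the 9 genes without correction (circles) and with offsets for exonic length and GC content (squares). Kdm6b, Jarid2 and Ezh1 lie lowest under both, and the offsets move those 3, Rnf2, Ring1 and Bmi1 toward 0 and Ezh2, Eed and Suz12 further below it.

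As a group, 1 of the 9 genes was called lower and 0 higher, against 0.17% of all tested genes lower and 0.0% higher. Before adjustment, p was below 0.05 for 3 genes with lower and 0 with higher levels, where the shares over all genes were 9.38% and 6.99%. The groups did not overlap, with KO lower, for 3 of the 9, against 12.1% of all genes. The median log2 fold change of the 9 was -0.09 and that of all genes 0.00226. The 9 genes were chosen with earlier results of these data known, so these shares describe the set and do not test it.

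Genes were ranked per kilobase of exon, with all annotated exons of a gene merged, so close ranks depend on the annotation. By this measure the PRC1 genes Rnf2 and Bmi1 led in WT at 18.9 ± 2.36 and 16.5 ± 2.64 CPM per kb. Their WT ranges overlapped. Below them came Suz12 at 12.5 ± 0.654, Eed at 9.29 ± 0.933, Kdm6b at 6.78 ± 0.252, Ezh1 at 5.94 ± 0.191, Ring1 at 4.89 ± 0.255, Jarid2 at 3.11 ± 0.364 and Ezh2 at 1.24 ± 0.463. From Bmi1 downward each gene's WT range stood clear of the next. In KO, Kdm6b at 3.99 ± 0.170 CPM per kb lay below Ezh1 (4.70 ± 0.153) and Ring1 (4.60 ± 0.262) in each library, while in WT it lay above both in each library.

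Ratios within a library do not depend on how libraries are scaled, and 3 of them were tested with an exact permutation test (two-sided), in which 3 against 3 libraries cannot go below p = 0.1. Kdm6b, an eraser gene, was set against Ezh2, a writer gene. Their count ratio was 6.69, 4.35 and 9.07 in WT and 3.55, 4.03 and 3.73 in KO. Each KO value was below each WT value, a difference in mean log2 ratio of -0.77 (exact permutation p = 0.1, adjusted over the 3 ratios 0.15), and the wide WT spread is that of Ezh2. With the length and GC offsets the difference was -0.57 and the permutation p 0.4 (exact), and without WT replicate 3 the difference was -0.52. This ratio leaves out the writer gene Ezh1 and the eraser gene Kdm6a. Per kilobase of exon, the log2 ratio of KO to WT means was -0.29 for Ezh1 and Ezh2 together. For Kdm6a, Kdm6b and Uty together it was -0.33. That sum includes Uty, at 5.40, 4.56 and 5.26 CPM per kb in WT and 6.25, 0.0149 and 0.0049 in KO. Kdm6a was at 5.54, 5.54 and 5.56 CPM per kb in WT and 4.93, 9.13 and 9.16 in KO. In the sum, genotype and sex-linked transcripts cannot be told apart. No sum without Uty was made. The ratio Ring1 to Rnf2 was 0.270, 0.334 and 0.239 in WT and 0.238, 0.212 and 0.232 in KO, a difference of -0.29 (exact permutation p = 0.1, adjusted 0.15). It shrank to -0.08 with the length and GC offsets and to -0.16 without WT replicate 2. The ratio Ezh1 to Ezh2 was 6.29, 4.10 and 8.43 in WT and 4.63, 5.10 and 4.52 in KO, and the groups overlapped (difference -0.34, exact permutation p = 0.4). Without WT replicate 2 it was -0.62 and without WT replicate 3 it was -0.10.

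Outside the 9 genes, 33 other Polycomb and KDM6 genes were listed, of which 31 passed the filter on low counts (Epop and Asxl3 did not). None was called in edgeR, while before adjustment 10 with lower levels and 1 with a higher level had p below 0.05, where the shares over all genes were 9.38% and 6.99%. DESeq2 called 3 of them lower, Phc2, Bcor and Bcorl1, against 4.1% of all genes with an adjusted p in DESeq2. The median log2 fold change of the 31 in edgeR was -0.12, and 22 of the 31 were negative, against 49.7% of all genes. Fold changes of this list, here and below, are without the length and GC offsets. The list was chosen with earlier results of these data known, so these shares are no test of it.

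Of the 9 genes for CBX, PHC and PCGF2 proteins, which form canonical PRC1 with the ligases above, 8 had negative fold changes (median -0.24) and 0 were called. Phc2, a polyhomeotic gene, had 76.5, 85.4 and 82.6 CPM in WT and 64.0, 66.4 and 64.5 in KO (-0.33, SE 0.07, adjusted p = 0.119). Cbx6, which encodes a chromodomain reader, had 177.7, 196.6 and 207.6 CPM in WT and 156.7, 185.0 and 188.0 in KO (-0.14, SE 0.10, adjusted p = 0.542). Among 10 genes of variant PRC1, Bcor, a corepressor gene on the X chromosome, averaged 56.1 ± 3.62 CPM in WT and 42.1 ± 5.12 in KO (-0.41, SE 0.11, adjusted p = 0.166). In KO, Bcor was at 36.4 CPM in replicate 1, without Xist, and at 43.7 and 46.3 in replicates 2 and 3, with Xist. Pcgf3 averaged 47.8 ± 3.73 and 48.8 ± 3.13 (0.03, SE 0.09, adjusted p = 0.898).

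The histone-binding subunit genes of PRC2 had higher means in KO and did not pass the test. Rbbp4 averaged 146.5 ± 6.17 CPM in WT and 163.7 ± 5.16 in KO (0.16, SE 0.07, adjusted p = 0.290), and Rbbp7 averaged 125.1 ± 11.9 and 138.0 ± 4.46 (0.14, SE 0.08, adjusted p = 0.451). Of the enzymes that take ubiquitin off histone H2A, Bap1, the catalytic subunit gene, averaged 64.5 ± 3.30 CPM in WT and 57.5 ± 1.89 in KO (-0.17, SE 0.07, adjusted p = 0.290). Its partner Asxl2 averaged 63.5 ± 1.48 and 61.8 ± 5.96 (-0.04, SE 0.08, adjusted p = 0.847).

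**Figure D5:**
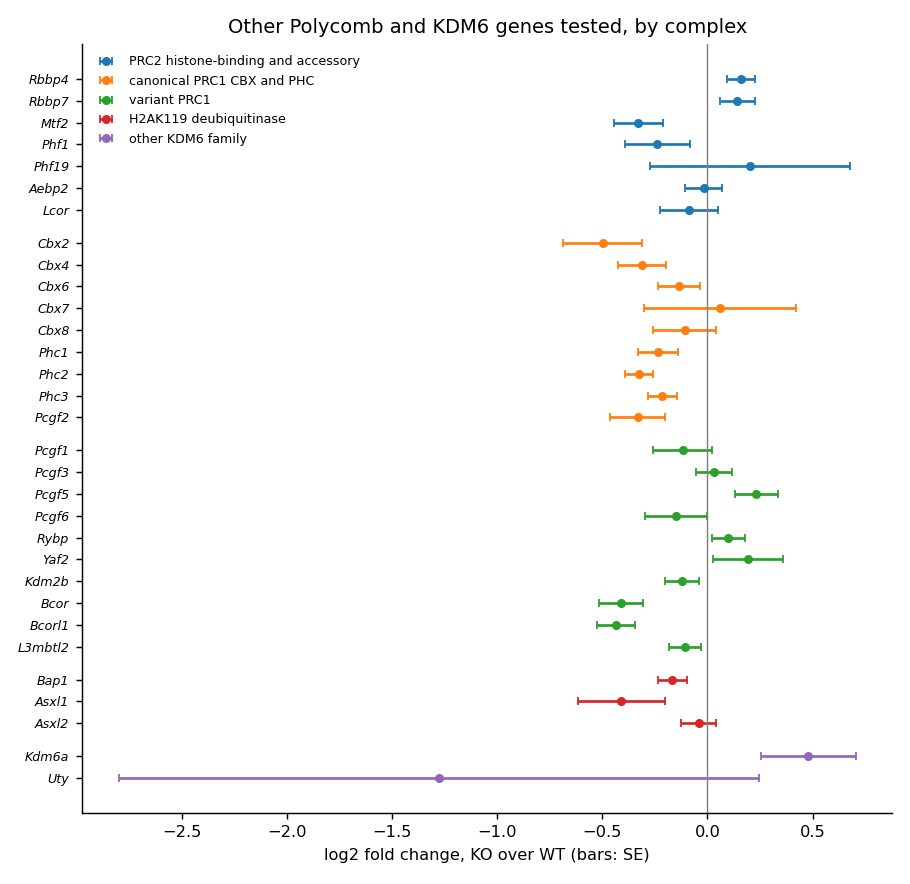
Log2 fold change of KO over WT (horizontal axis, bars SE) for the 31 tested genes of the other Polycomb and KDM6 list, coloured by complex. Of the 9 canonical PRC1 genes 8 lie below 0, and Uty has the widest error because it is near 0 in KO replicates 2 and 3.

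Textbook targets of Polycomb silencing were at low levels in both genotypes. Reads of the inhibitor gene Cdkn2a numbered 7, 15 and 6 in WT against 5, 6 and 13 in KO, too few to test. Its neighbour Cdkn2b averaged 4.80 ± 0.693 CPM in WT and 4.98 ± 0.394 in KO (0.05, SE 0.17, adjusted p = 0.912). All 39 listed HOX genes, body-axis regulators, averaged below 1 CPM over the 6 libraries, 10 of them had no count in any library and 4 could be tested. The highest were Hoxd8 at 0.707 CPM in WT and 0.976 in KO (0.46, SE 0.35, adjusted p = 0.563) and Hoxb4 at 0.459 and 0.444 (-0.05, SE 0.36, adjusted p = 0.964). None of the 5 tested targets was called in edgeR and 0 had an unadjusted p below 0.05. None was called in DESeq2, which gave an adjusted p to only 10659 of the 15915 genes. A gene without an adjusted p could not be called, so for genes this low the lack of a DESeq2 call says little.

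Likeness to other genes was read as Pearson's r of log2(CPM + 1) over the 6 libraries, among genes of at least 10 CPM. These points share the split into WT and KO, so for Kdm6b the measure mostly ranks genes with the same step. Of 8687 genes the 5 most like Kdm6b were Nom1 (r = 0.997), Cherp (0.995), the bromodomain gene Brd3 (0.994), Gramd1b (0.994) and the histone demethylase gene Kdm2a (0.993). Of these 5, Brd3 had the fold change farthest from 0 (-0.51 on the log2 scale), at 54.4, 54.9 and 57.5 CPM in WT and 39.1, 36.6 and 41.1 in KO. Of 8688 genes the 5 most like Ezh2 were Mcm3 (r = 0.995), Capn1 (0.995), Chd1l (0.984), Mcm7 (0.978) and Mcm5 (0.968). The 3 Mcm genes encode subunits of the helicase that opens DNA for replication, and Mcm3 had 11.0, 22.5 and 7.82 CPM in WT and 14.5, 11.0 and 14.7 in KO.

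Of 59 tested marker genes, 0 were called in edgeR, while 8 with lower and 7 with higher levels had an unadjusted p below 0.05. The 59 mark cell types that islet preparations hold, dividing cells and sex. Over all genes the shares with an unadjusted p below 0.05 were 9.38% lower and 6.99% higher. Groups that did not overlap were found for 12.1% of all genes with KO lower and 11.3% with KO higher. The sum of 8 beta cell genes, mostly the insulin genes Ins1 and Ins2, was 215400 to 234200 CPM in WT and 277900 to 286100 in KO, with no overlap. Of these 8, 6 had positive fold changes and 2 of them an unadjusted p below 0.05. Of 5 alpha cell genes all had negative fold changes and 4 an unadjusted p below 0.05. Their sum, mostly the glucagon gene Gcg, was 33860 to 44120 CPM in WT and 30500 to 35400 in KO. Of 6 endothelial genes all had positive fold changes, 5 with an unadjusted p below 0.05, and their sum was 259.9 to 316.9 CPM in WT and 356.6 to 388.2 in KO. The alpha cell sums and those that follow overlapped between the groups. Acinar genes (10) summed to 21250 to 66760 CPM in WT and 15550 to 41530 in KO. Macrophage and lymphocyte genes (6) summed to 66.1 to 176.2 and 86.2 to 128.4 CPM. Delta cell genes (3) summed to 2545 to 4165 CPM in WT and 2201 to 3928 in KO, duct genes (5) to 193.3 to 231.8 and 193.5 to 219.1, and stellate and fibroblast genes (6) to 78.8 to 175.2 and 70.98 to 185.6. No marker gene was at 0 in all libraries. The part of these cell types in the levels of the 9 genes was not tested.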

How the data were processed

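The deposited table holds raw read counts per gene, as the authors left them before any normalization, for 53670 genes in 6 libraries. The labels' protocols name collagenase-isolated islets, total RNA and a TruSeq kit, and the submitters' processing notes list HTSeq, HISAT2 2.1.0, CASAVA 1.8.2 and DESeq2, with build mm9. The annotation and strand setting: not given in the sources used here. Unstranded counting would merge opposite-strand genes (such exons cover 4.1% of the exonic bases of Kdm6b in GENCODE vM1, 3.6% of Suz12 and 2.8% of Ezh2). Columns were matched by name with 0 unmatched. Dates replaced 24 gene names, which were not used here by name.

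The 9 genes, the lists and the tests were chosen with earlier results of these data known. Genes were kept by filterByExpr (15915), scaled by TMM and tested for genotype with edgeR 4.0.16 (quasi-likelihood F-test, R 4.3.3), with Benjamini-Hochberg adjustment over all tested genes and calls at an adjusted p below 0.05. The SE is the fold change divided by the square root of F. GENCODE vM1 (mm9) gave exonic lengths and GC content for 14907 of the tested genes (93.7%). Offsets were splines (5 degrees of freedom each) per library.

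Alternatives were DESeq2 1.42.0, limma-voom (limma 3.58.1), DESeq2 size factors within edgeR, a filter of 1 CPM in 3 libraries, no filter, the replicate number as a block, log2(CPM + 1) of Xist as a covariate, length and GC offsets, the block with the offsets, leaving out each library, and KO replicate 1 alone against WT. The code was checked on simulated counts. All 9 genes are named. Of the other Polycomb genes the text names those called and otherwise the 2 with the highest mean CPM per complex, with Kdm6a and Uty always. Of the targets it names Cdkn2a, Cdkn2b and the 2 highest HOX genes, and of marker lists the first genes as written. For likeness to Kdm6b and to Ezh2 it names the 5 tested genes with the highest r, predicted genes left out. Epop and Asxl3 are named because they did not pass the filter, Bcorl1 because DESeq2 called it, and Cbx7 and Mtf2 after their values were seen. Plots used matplotlib 3.10.9 under Python 3.11.15.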

Additional observations from a re-analysis of the deposited data

How the results depend on the processing

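The whole-table count of 27 called genes became 646 in DESeq2, 1 with KO replicate 1 alone against WT, and 0 in limma-voom, with the Xist covariate or with the length and GC offsets. Leaving out 1 library gave 0 to 89. Of the 9 genes, 3 were called in DESeq2, and 0 in limma-voom, with the Xist covariate, with the offsets or with KO replicate 1 alone, and 0 to 1 when 1 library was left out. Of the other Polycomb genes, 3 were called in DESeq2 and 0 to 1 when 1 library was left out (Uty, without KO replicate 1). The causes were not tested, except that fewer libraries leave fewer degrees of freedom. Over the 16 alternatives Kdm6b, Ezh1, Jarid2, Eed, Ring1, Rnf2 and Bmi1 kept their sign in all 16, Suz12 in 14 and Ezh2 in 10. No Polycomb target was called under any alternative, but a target that a setting filtered out or left without an adjusted p could not be called. The 3 count ratios kept their sign under the alternatives run for them.

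With the replicate number as a block 0 genes of the table and 0 of the 9 were called, also with the block and the offsets together, and Kdm6b stood at -0.77 (adjusted p = 0.204) and -0.57 (adjusted p = 0.282). The blocked ratios had the same differences, -0.77 for Kdm6b to Ezh2, -0.29 for Ring1 to Rnf2 and -0.34 for Ezh1 to Ezh2. Whether the numbers pair the samples is not given in the sources used here, and the values do not decide it. Over genes, deviations of same-numbered libraries correlated at 0.19, 0.0372 and 0.0663. WT replicate 1 correlated best with KO replicate 1 (against -0.0628 and -0.16 with KO replicates 2 and 3). WT replicate 2 correlated best with KO replicate 3 (0.0676). The acinar sums fell in replicate order in both groups. Depth limits the low genes most: Cdkn2a and most HOX genes had too few counts to show a difference.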

Other observations

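Rnf2 and Bmi1 varied together over the 6 libraries (Pearson r of log2(CPM + 1) = 0.91), and each ran against Jarid2 (r = -0.73 and -0.76). Ezh1 and Kdm6b had r = 0.99. These are descriptions of 6 points that share the split into WT and KO.

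Cbx7, a canonical PRC1 reader gene noticed after its values were seen, varied more within genotypes than between them. It had 25.3, 44.3 and 64.8 CPM in WT and 30.6, 52.1 and 57.5 in KO, with a fold change of 0.06 on the log2 scale (SE 0.36, adjusted p = 0.954). The 10 acinar genes summed to 66760, 35700 and 21250 CPM in WT and to 41530, 29100 and 15550 in KO, so Cbx7 was lowest where they were highest, in replicate 1 of each group. Their part in the level of Cbx7 was not tested.

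Mtf2, a PRC2 accessory gene whose values were also seen first, had lower values in all KO than in all WT libraries, at 18.9, 15.2 and 17.4 CPM in WT and 15.0, 13.2 and 12.9 in KO (-0.33, SE 0.12, adjusted p = 0.248).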
